A study of Arabidopsis thaliana with 204 samples.

Results

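In 40 Arabidopsis genes, the transcript level was lower in the far-red-treated leaf tip than in white light while it was higher in the remote abaxial petiole. The genes were chosen by their own values in these samples. For each gene, the log2 difference of FRtip minus WL, on the normalized count plus 1, was averaged over 5 time points (100, 120, 140, 160 and 180 min). A gene was taken when this difference was at most -0.4 in the leaf tip and at least 0.3 abaxially, with a mean normalized count of at least 10 in each of these tissues. Of 33602 loci, 14582 passed on abundance, 1116 of these met the leaf tip threshold, 533 met the abaxial one and 40 met both. The 40 were about the same share of the 1116 as the 533 were of the 14582. The overlap was thus near what unrelated thresholds would give, and its size was not tested. The mirror pattern, at least 0.4 in the leaf tip with at most -0.3 in the petiole, held for 30 genes.

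The plants were wild-type Arabidopsis thaliana Col-0, 28 days old, grown in days of 9 h light and 15 h dark. In FRtip, far-red LEDs lit only the tip of a leaf, where the red to far-red ratio was 0.05, and in WL the tip stayed in white light with a ratio of 2.0. RNA came from the tip and from the abaxial (lower) and adaxial (upper) sides of the petiole base, at 60, 80, 100, 120, 140, 160, 180 and 300 min, and for the tip also at 40 min. Each group of 1 tissue, treatment and time had 4 replicates of 13 pooled leaves, with 3 for WL leaf tips at 40 min. The comparison asks how a light cue seen by the tip changes expression in the tip itself and at a distance.

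As background, far-red light from neighbours inactivates phytochrome B in the leaf tip, and auxin made there moves to the petiole, where the abaxial side elongates and lifts the leaf. Auxin triggers the breakdown of Aux/IAA repressors, which frees auxin response factors (ARFs) to switch on genes such as the SMALL AUXIN UPREGULATED RNA (SAUR) family, whose proteins promote cell expansion. Gibberellin, whose synthesis ends with GA20OX and GA3OX enzymes, permits growth by removing DELLA proteins. Cytokinin signalling is damped by type-A response regulators, which cytokinin itself induces. HD-Zip II homeodomain factors, several of them induced by shade, act in leaf growth and polarity.

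The regions before 3 of the genes are shown because their windows hold short motifs tied to auxin and to the PIF factors of shade. Each is the 250 bases before the annotated start, read 5′ to 3′ on the strand of the gene from the RefSeq TAIR10.1 genome with its own annotation. The reads had been mapped to TAIR10, and no position was converted. Capitals mark the PBE-box CACATG, the G-box CACGTG and the auxin response elements TGTCTC and TGTCGG, on either strand.
SAUR15, a SAUR gene, chr4:18125807-18126056, + strand: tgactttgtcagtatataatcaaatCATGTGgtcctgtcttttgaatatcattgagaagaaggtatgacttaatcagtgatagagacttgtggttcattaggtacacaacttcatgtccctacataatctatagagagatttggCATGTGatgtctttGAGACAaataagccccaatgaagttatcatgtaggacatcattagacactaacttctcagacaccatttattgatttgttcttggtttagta
SAUR6 (AT2G21210), a SAUR gene, chr2:9086030-9086279, - strand: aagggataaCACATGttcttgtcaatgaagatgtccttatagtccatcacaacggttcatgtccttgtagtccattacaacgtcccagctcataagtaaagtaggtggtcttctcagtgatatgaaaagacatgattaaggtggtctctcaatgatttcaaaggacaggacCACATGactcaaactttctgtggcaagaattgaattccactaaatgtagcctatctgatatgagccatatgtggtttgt
ARR7, a type-A response regulator gene, chr1:6579315-6579564, - strand: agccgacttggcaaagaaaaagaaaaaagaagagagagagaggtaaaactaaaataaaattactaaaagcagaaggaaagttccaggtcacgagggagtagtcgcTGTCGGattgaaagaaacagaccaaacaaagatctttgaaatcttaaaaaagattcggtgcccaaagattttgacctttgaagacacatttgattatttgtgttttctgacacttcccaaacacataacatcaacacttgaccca
The window of SAUR15 held 2 PBE-boxes and 1 auxin response element, that of SAUR6 held 2 PBE-boxes, and that of ARR7 held 1 auxin response element. SAUR14 (AT4G38840) and SAUR15 are neighbours pointing away from each other with 497 bases between their starts, and their windows share 3 bases. Over the 40 genes, 7 windows (17.5%) held a PBE-box, against 11.2% of the 19811 windows of all genes tested. Auxin response elements stood in 15% of the members' windows and in 14.9% of all windows, and the G-box in 7.5% and 7.25%. These shares describe letters in a window and were not tested.

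The 199 samples used held 805840 to 5538648 reads on genes, with a median of 2304846, and the leaf tip was shallower, with medians of 1603248 in FRtip and 1807196 in WL. The labelled tissues matched their markers. The proximal leaf genes BOP1 and BOP2, summed, reached at most 3.27 normalized counts in a leaf tip sample and at least 20.7 in a petiole sample. The 4 abaxial side markers (KAN1, YAB1, YAB3 and ARF4) had a summed median of 525 in abaxial FRtip and 508 in abaxial WL samples, against 289 and 281 in adaxial FRtip and WL samples. Their FRtip ranges overlapped, at 287.9 to 629.6 abaxially and 194.7 to 365 adaxially. The 4 adaxial side markers (PHB, PHV, REV and AS2) had summed FRtip medians of 309.9 abaxially and 402.5 adaxially, with overlapping ranges. Of these, PHV was at 140.8 abaxially and 138 adaxially in FRtip, while PHB, REV and AS2 were higher adaxially. In the leaf tip, 4 of 4 guard cell markers (MYB60, FAMA, KAT1 and HT1) summed to between 378 and 1431 in FRtip and between 255 and 494 in WL, while the 4 mesophyll markers had summed medians of 71280 in FRtip and 71520 in WL. KAT1 carried this sum, with a median of 480 in FRtip and 153 in WL, while the medians of the other 3 were lower in FRtip, such as FAMA at 104 in FRtip and 115 in WL. The part of these markers in the leaf tip results was not tested. In such tissue pieces, fewer cells of a type and less RNA per cell cannot be told apart.

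Over 100 to 180 min, the values that chose the genes, the leaf tip log2 difference ran from -2.34 to -0.41 with a median of -0.71, and the abaxial one from 0.31 to 1.29 with a median of 0.54. They are given as a description, with no test. In time, the median leaf tip difference was -0.14 at 40 min, -0.44 at 60 min, -0.62 at 80 min, -0.74 at 100 min, -0.83 at 120 min, -0.90 at 140 min, -0.73 at 160 min, -0.79 at 180 min and -0.67 at 300 min. The abaxial median was -0.07 at 60 min and 0.03 at 80 min, and then 0.40 at 100 min, 0.58 at 120 min, 0.60 at 140 min, 0.68 at 160 min, 0.51 at 180 min and 0.11 at 300 min. So the leaf tip median was below 0 before the petiole median left it, and it was still low when the petiole had come back near 0. The adaxial petiole, which took no part in the choice, had medians of 0.05 at 60 min, 0.02 at 80 min, 0.17 at 100 min, 0.27 at 120 min, 0.39 at 140 min, 0.38 at 160 min, 0.29 at 180 min and -0.12 at 300 min. Over all genes tested, the median stayed between -0.02 and 0.01 at every time in each tissue.

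**Figure D1:**
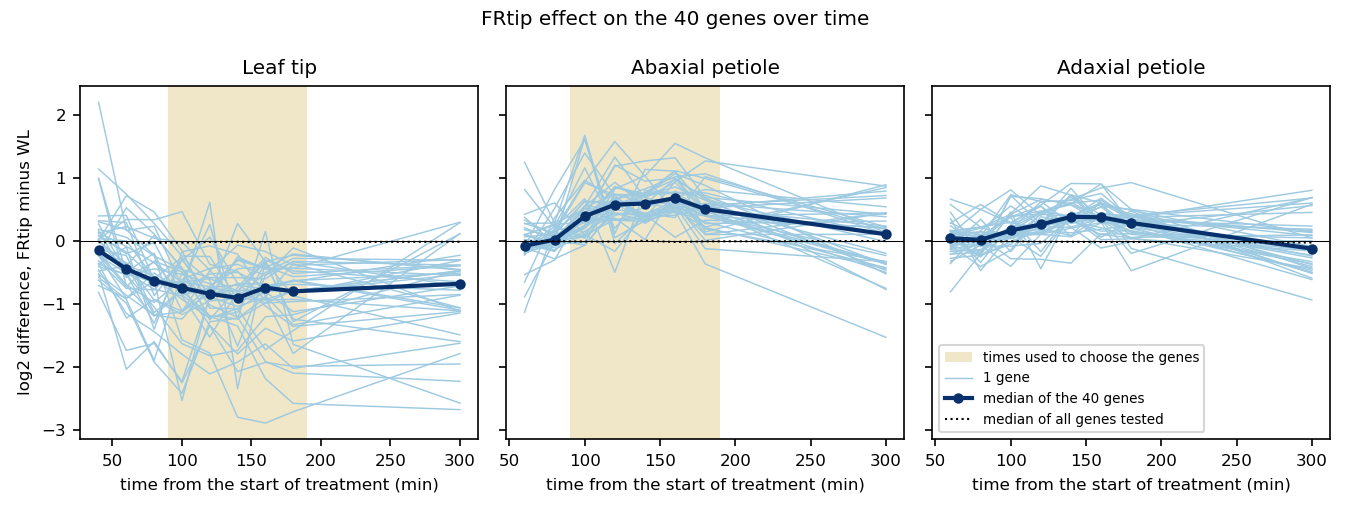
Log2 difference of FRtip minus WL (vertical axis) against minutes of treatment for the 40 genes in each tissue, with a thin line per gene, a thick line for their median, a dotted line for the median of all genes tested, and shading over the times used to choose the genes. The leaf tip median lies at -0.44 by 60 min, when the abaxial median is -0.07, and the petiole medians peak at 0.68 abaxially and 0.39 adaxially.

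ARR7, the type-A response regulator gene, had the widest split. Its lowest, median and highest normalized counts in the leaf tip at 100 to 180 min were 16.5, 45.2 and 150.5 in FRtip and 193, 222 and 295 in WL (n = 20 each). In the abaxial petiole they were 214, 336 and 444 in FRtip and 131, 194 and 233 in WL. Every FRtip leaf tip lay below every WL leaf tip, and at each of the 5 time points all abaxial FRtip samples lay above all abaxial WL samples. The log2 differences were -2.34 in the tip and 0.80 abaxially.

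SAUR14 and SAUR15, the neighbouring SAUR genes, split in unlike ways. SAUR14 had 41.4, 77.9 and 122.8 normalized counts (lowest, median and highest) in FRtip leaf tips and 205, 290.2 and 384 in WL leaf tips, with no overlap. Its abaxial values were 169.6, 212 and 260.0 in FRtip and 116, 155 and 219.8 in WL. SAUR15 had 11.2, 19 and 45 in FRtip leaf tips and 27.6, 42.2 and 55.6 in WL leaf tips, ranges that overlapped. Abaxially it had 69.6, 144 and 196 in FRtip and 37, 54.5 and 89.5 in WL, with all FRtip samples above all WL samples at each of the 5 time points. SAUR14 thus moved more in the tip, at -1.89 against 0.43 abaxially on the log2 scale, and SAUR15 more in the petiole, at -0.99 against 1.29. SAUR6, the third SAUR member, had -0.95 and 0.49, but it overlaps AT2G21200 on the same strand by 176 bases in the TAIR10.1 annotation, so its reads are uncertain.

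GA20OX1 encodes a gibberellin 20-oxidase. Its leaf tip values at 100 to 180 min were low, with 1.09, 6.53 and 22.8 normalized counts in FRtip and 4.53, 15.7 and 21 in WL. Abaxially they were 98.9, 175 and 272 in FRtip and 57.1, 93.8 and 153 in WL. The groups overlapped in both tissues, and the log2 differences were -0.84 in the tip and 0.80 abaxially. RGF9 encodes a secreted peptide of the root meristem growth factor family and had the highest normalized counts of the members, which were not divided by length. It had 338, 428 and 707 in FRtip leaf tips and 743, 919 and 1082 in WL leaf tips, without overlap. In the abaxial petiole it had 838, 1425 and 2283 in FRtip and 730.3, 1034 and 1508 in WL, with overlap. The log2 differences of RGF9 were -1.03 in the tip and 0.49 abaxially.

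**Figure D2:**
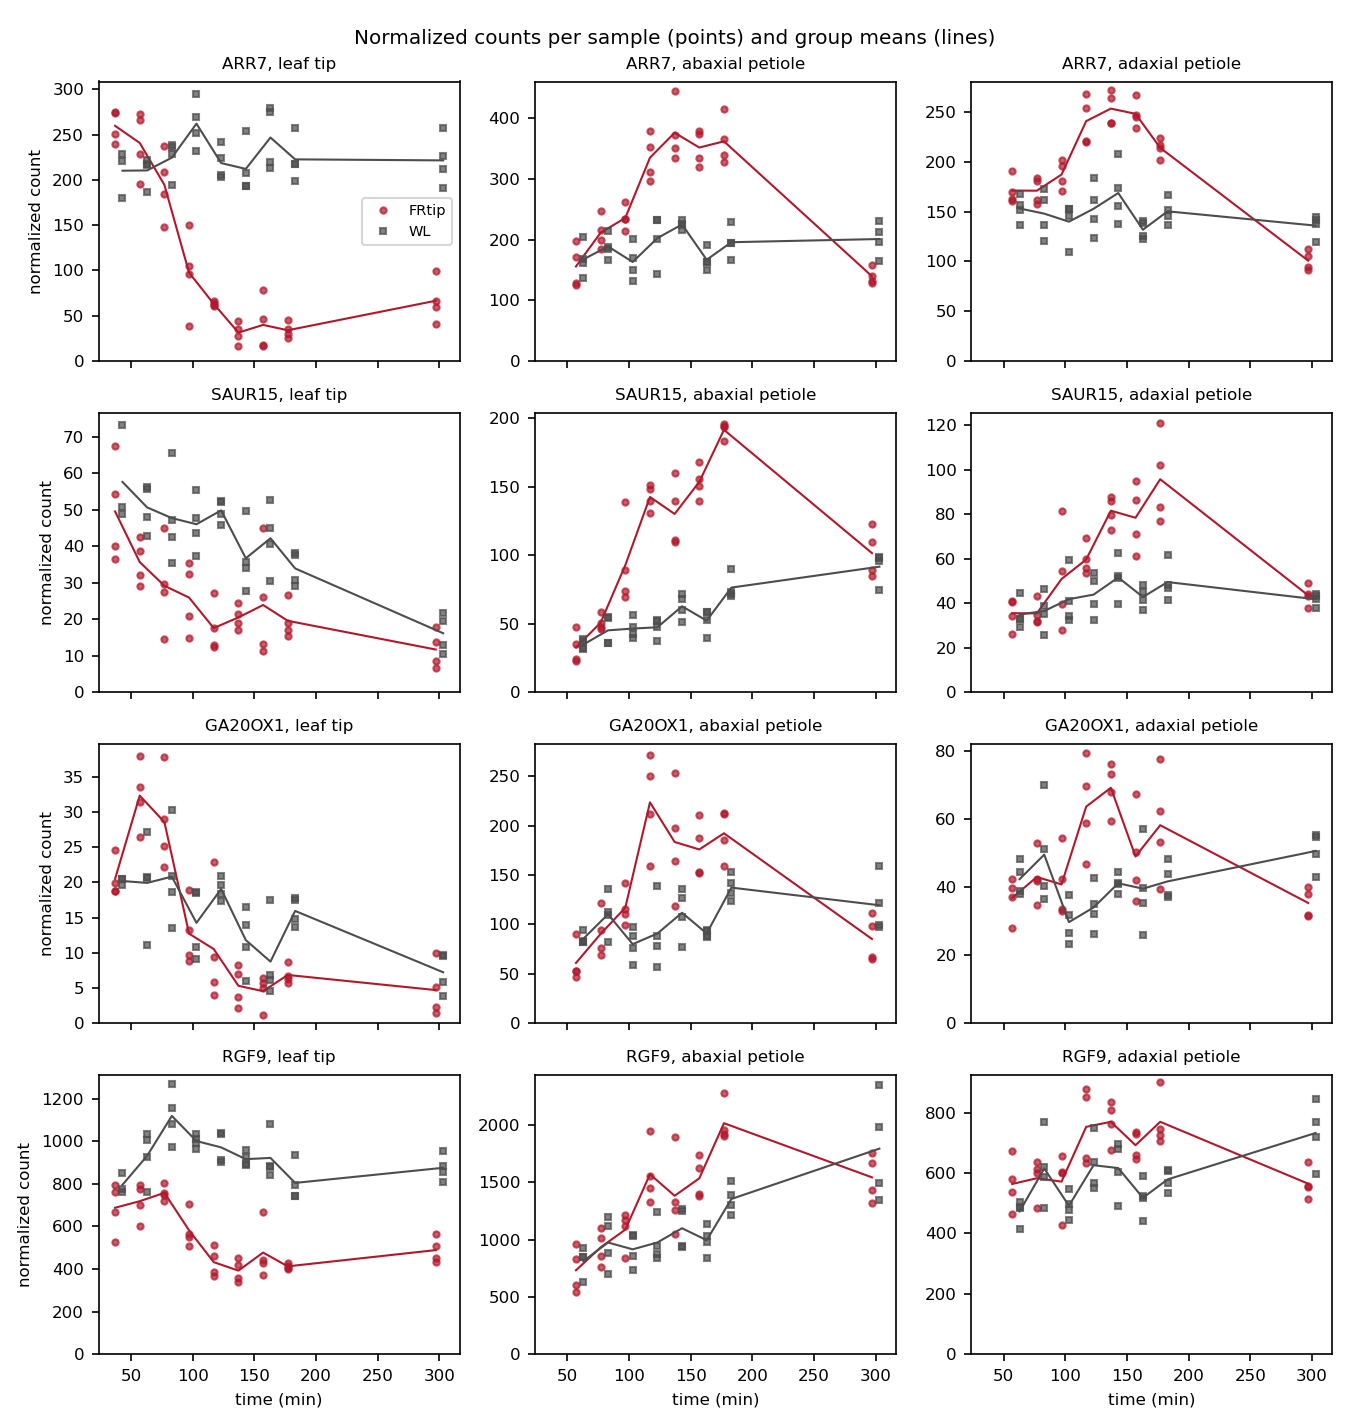
Normalized counts (vertical axes, from 0) of ARR7, SAUR15, GA20OX1 and RGF9 against minutes of treatment in the 3 tissues, with a point for each sample of FRtip and WL and lines through the group means. At 100 to 180 min the median of ARR7 is 45.2 in FRtip and 222 in WL in the leaf tip, and 336 in FRtip and 194 in WL in the abaxial petiole.

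HAT3 and HAT22 encode HD-Zip II factors. HAT3 had 14.9, 23.1 and 38 normalized counts in FRtip leaf tips at 100 to 180 min and 45, 59.1 and 83.7 in WL leaf tips, without overlap. Abaxially it had 38.4, 59.4 and 77.9 in FRtip and 32.6, 43.5 and 56.3 in WL, with overlap, and the log2 differences were -1.36 and 0.41. HAT22 had -0.82 in the tip and 0.41 abaxially, the homeobox gene HB33 -0.53 and 0.59, and the GRAS family gene AT3G50650 -0.73 and 0.50. Among the other auxin genes, IAA14, which encodes an Aux/IAA repressor, had -0.45 and 0.80. The auxin response factor gene ARF10 had -0.66 and 0.98, and the auxin transporter gene ABCB21 -0.88 and 0.33.

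Transport and the metabolism of sugar and nitrogen were the roles of 9 members. ASN1, a glutamine-dependent asparagine synthetase gene induced by darkness and sugar starvation, had 2.18, 9.85 and 20.9 normalized counts in FRtip leaf tips and 10.8, 30.8 and 47.6 in WL leaf tips. OPT1, an oligopeptide transporter gene, had 1.88, 17 and 36.1 in FRtip leaf tips and 26.7, 44.2 and 71.5 in WL leaf tips. In OPT1 all FRtip samples lay below all WL samples at each of the 5 time points, and in ASN1 at 4 of them. The log2 differences were -1.63 in the tip and 0.54 abaxially for ASN1, and -1.51 and 0.52 for OPT1. The sulfate transporter gene AST91 had -1.27 and 0.66, and ATBFRUCT1, whose cell wall invertase splits sucrose outside the cell, -0.66 and 0.83. ERD6, PMT6 and INT4, of sugar and polyol transporter families, TPPE, a trehalose phosphate phosphatase gene, and CNGC15, an ion channel gene, had tip differences of -0.56, -0.44, -0.41, -0.50 and -0.63, in this order, and abaxial ones between 0.36 and 0.57.

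Among the remaining members, AT1G67400, which encodes an ELMO/CED-12 family protein, had 3.25, 7.46 and 17.5 normalized counts in FRtip leaf tips and 18.5, 32.5 and 52.4 in WL leaf tips, without overlap, and log2 differences of -1.91 in the tip and 0.36 abaxially. AO1, an aldehyde oxidase gene, had -1.34 and 0.64, PAE8 (AT4G19420), a pectin acetylesterase gene, -0.65 and 0.41, and CRK40, a receptor-like kinase gene, -0.69 and 0.31. AT2G30930, of no known role and with a mean of 474 normalized counts in the abaxial petiole, had -1.08 and 0.43. AT1G07485, also of no known role, had -1.52 and 0.69. It overlaps RTFL3 on the opposite strand by 642 bases, and whether counting used the strand is not given in the sources used here, so that reads of both cannot be told apart. RTFL3 itself had -1.49 and 0.59 and missed the choice by its leaf tip mean of 9.26.

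Some members stood close to a threshold. At the leaf tip threshold, INT4 at -0.41 and AT1G22330 at -0.41 were just inside, and AT5G45670 at -0.39 and CYP76C6 at -0.38 just outside. At the abaxial threshold, CRK40 at 0.31 and AT3G06868 at 0.32 were inside, and AT4G37240 at 0.29 and AT3G50270 at 0.29 outside. On abundance, AT3G50650 with a leaf tip mean of 10.5 and AT1G07485 with 10.9 were inside, and AT3G50560 with 9.19 was outside, next to RTFL3.

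The adaxial petiole, the other side of the same organ, gave a comparison whose values had no part in the choice. There, 22 of the 40 genes were higher in FRtip than in WL at 100 to 180 min and 0 were lower (limma, called at a Benjamini-Hochberg adjusted p below 0.05 over all 19964 genes tested, among which were all 40). Of all genes tested, 3.15% were called higher and 1.63% lower. These shares are not a like reference, since the members were picked for rising on the abaxial side over the same times. The 2 sides shared treatment and times, so the adaxial rise is no independent support of the choice. The median log2 difference was 0.33 over the members and -0.01 over all genes tested. It was above 0 in 39 members, of which 31 had an unadjusted p below 0.05, and edgeR called 24 higher and 0 lower. The exception was AT3G06868, which encodes a vitellogenin-like protein, at -0.13. By role, the genes called were 3 of 6 for auxin, 3 of 3 for gibberellin, cytokinin and peptide signals, 2 of 4 transcription factors, 3 of 9 for transport, sugar and nitrogen, 2 of 4 for wall and membrane, 5 of 9 other annotated proteins and 4 of 5 with no known role.

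ARR7 had the smallest p on the adaxial side. Its lowest, median and highest normalized counts were 171, 229 and 272 in FRtip and 109, 146 and 208 in WL (n = 20 each), and all FRtip samples lay above all WL samples at each of the 5 time points. The log2 difference was 0.62 ± 0.05 (SE, limma adjusted p = 7.19e-14). SAUR15 had 27.9, 74.8 and 121 in FRtip and 32.3, 45.8 and 62.7 in WL, a log2 difference of 0.62 ± 0.09 (limma adjusted p = 1.96e-06), with the groups apart at 4 of the 5 time points. GA20OX1 had 32.9, 56.7 and 79.5 in FRtip and 23.2, 37.6 and 57.2 in WL, a log2 difference of 0.56 ± 0.09 (limma adjusted p = 1.31e-05), with the groups apart at 2 of the 5 time points. The mean of FRtip was above that of WL at all 5 time points in each of these genes, and all 11 alternatives called them.

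HAT3 had 49.6, 76.1 and 87.2 normalized counts in adaxial FRtip samples and 43.9, 57.5 and 71.4 in adaxial WL samples, a log2 difference of 0.40 ± 0.07 (limma adjusted p = 2.11e-05). HAT22 had 50.3, 63.3 and 84.4 in FRtip and 39.2, 53.2 and 66.3 in WL, a log2 difference of 0.33 ± 0.06 (limma adjusted p = 0.000266). Both HD-Zip II genes were higher in FRtip at all 5 time points by their means, with the pooled ranges overlapping. IAA14 had 81.9, 139 and 171 in FRtip and 60.1, 106.10 and 133 in WL, a log2 difference of 0.40 ± 0.07 (limma adjusted p = 0.000197). RGF9 had 429, 716 and 902 in FRtip and 440.1, 558 and 750.2 in WL, a log2 difference of 0.32 ± 0.06 (limma adjusted p = 0.000188). The invertase gene ATBFRUCT1 had 22.4, 28.9 and 44.1 in FRtip and 13.9, 19.3 and 30.9 in WL, a log2 difference of 0.52 ± 0.10 (limma adjusted p = 0.000186). In these 3 genes too the ranges overlapped while the FRtip mean was higher at each time point.

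AT1G22330, which encodes an RNA-binding protein, had 96.9, 179 and 232 normalized counts in adaxial FRtip samples and 82.4, 127 and 153 in adaxial WL samples, a log2 difference of 0.52 ± 0.07 (limma adjusted p = 5.45e-08). AT1G27210, which encodes an ARM repeat protein, had 126, 166 and 193 in FRtip and 101, 129.7 and 161 in WL, a log2 difference of 0.35 ± 0.05 (limma adjusted p = 6.67e-06). In both, the groups were apart at 3 of the 5 time points. ERD6 rose by 0.39 ± 0.08 and AT1G07485 by 0.38 ± 0.07, and the other calls were AO1, AT1G67340, AT5G54710, AT2G43340, CRK40, AST91, ARF10, AT2G30930, PAE8 and AT3G06070, at 0.24 to 0.59. The largest change among the 22 genes was 1.54-fold. Calls lost on leaving out 1 replicate number were AT2G43340 and CRK40 (replicate 1), AST91 and AT2G30930 (replicate 3), AT1G67340 and ARF10 (replicate 4), PAE8 (replicate 1, 2 or 3) and AT3G06070 (replicate 1, 3 or 4). Not called were SAUR14 at 0.17, SAUR6 at 0.08, ABCB21 at 0.33, TPPE at 0.17 and ASN1 at 0.08.

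**Figure D3:**
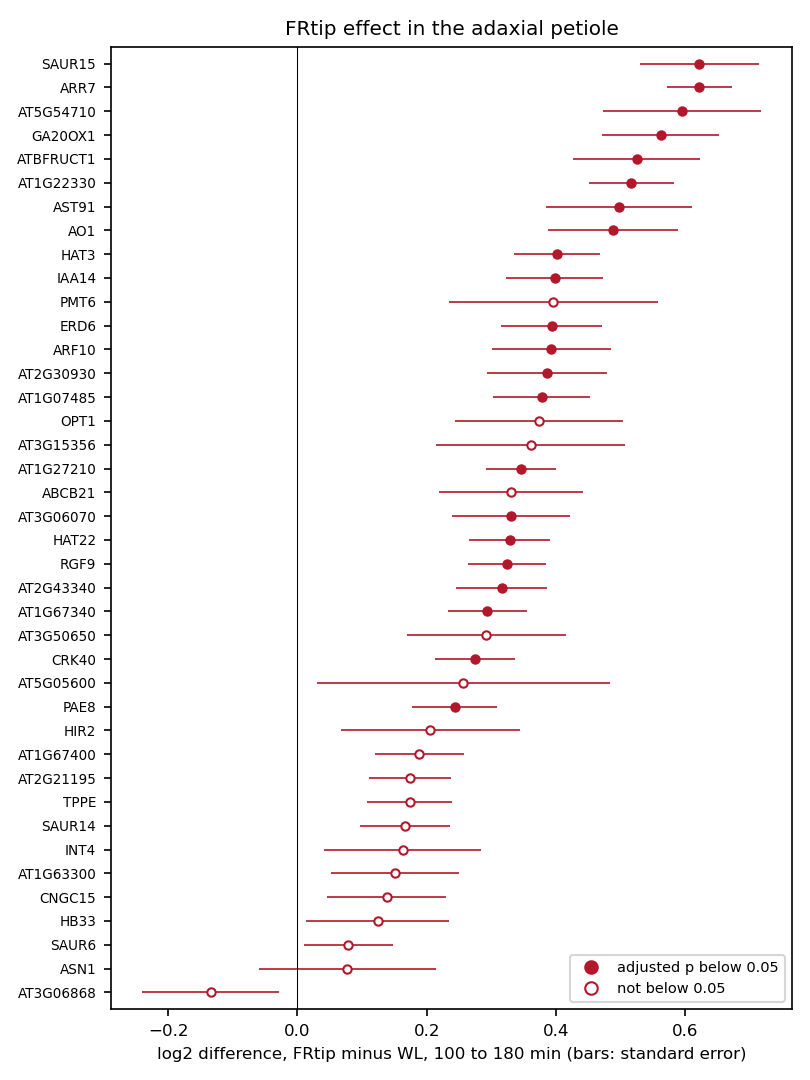
Log2 difference of FRtip minus WL in the adaxial petiole, averaged over 100 to 180 min (horizontal axis), for each of the 40 genes, with bars for the standard error and filled points for an adjusted p below 0.05. The 22 filled points all lie right of 0, with ARR7 and SAUR15 at 0.62, and AT3G06868 is the gene left of 0.

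In the leaf tip at 40 to 80 min, before the window of the choice, 15 members were lower in FRtip (6.21% of all genes tested were called lower) and 2 were higher (4.22% of all). The shares of all genes are not a like reference, since the members were picked for falling in this tissue at later times. SAUR14 had 115, 162 and 276 normalized counts (lowest, median and highest) in FRtip (n = 12) and 262, 346 and 462 in WL (n = 11), a log2 difference of -1.01 ± 0.12 (limma adjusted p = 7.58e-10). AT1G67400 had 4.49, 10.06 and 28.3 in FRtip and 18, 29.8 and 41.7 in WL, with -1.38 ± 0.19 (limma adjusted p = 1.02e-07). AT2G43340, which encodes a DUF1685 protein of no known role, had 29.7, 52.9 and 95.4 in FRtip and 76.1, 96.8 and 103 in WL, with -0.83 ± 0.12 (limma adjusted p = 1.38e-07). All 3 genes had their FRtip samples below those of WL at 2 of the 3 time points. GPX3 overlaps AT2G43340 on the opposite strand by 184 bases, so the reads of AT2G43340 are uncertain. SAUR6, PAE8, RGF9 and HAT22 were lower by 0.48, 0.70, 0.39 and 0.51 on the log2 scale, and the others called lower were AT3G06070, AT2G30930, AT1G22330, ARF10, CRK40, AO1, AT1G07485 and CNGC15. Of these, CRK40 and AO1 were not called without replicate 1, AT1G07485 not without replicate 4 and CNGC15 not without replicate 1, 3 or 4. ARR7 at 0.09, SAUR15 at -0.50 and GA20OX1 at 0.40 were not called in this window.

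The 2 members that were higher early were HAT3 and AT3G06868, and both turned. At 40 min HAT3 had 155, 139, 122.7 and 144 normalized counts in FRtip leaf tips and 24.1, 34.4 and 30.8 in WL leaf tips, so that every FRtip sample lay far above every WL sample. At 60 min the means were 65.4 ± 15.2 in FRtip and 58.9 ± 19.7 in WL, and at 140 min 19.5 ± 6.37 in FRtip and 68.2 ± 10.9 in WL (SD, n = 4 each). Over 40 to 80 min, the log2 difference of HAT3 was 0.87 ± 0.12 (limma adjusted p = 4.73e-08). AT3G06868 had 42.4, 53.4, 51.4 and 64.1 in FRtip at 40 min and 21.7, 31.1 and 18.1 in WL, and over 40 to 80 min a log2 difference of 0.73 ± 0.12 (limma adjusted p = 9.83e-06). The reads of AT3G06868 are uncertain, because AT3G06870 overlaps it on the opposite strand by 1114 bases.

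In the petiole at 60 to 80 min, 0 members were called on the abaxial side, where 0.01% of all genes tested were called in either direction, and 0 on the adaxial side, where 0.00501% were. With limma, 4 members had an unadjusted p below 0.05 on each side, and edgeR called 0 members on both. The abaxial ones were HB33 at 0.52, GA20OX1 at -0.41, HAT22 at 0.29 and AT1G27210 at 0.21 on the log2 scale. GA20OX1 had 46.8, 72.7 and 121.8 normalized counts in FRtip and 81.6, 89.1 and 136 in WL (n = 8 each), and HB33 13.5, 18.6 and 23.8 in FRtip and 4.44, 12.7 and 28.5 in WL, with overlap in both genes. The adaxial ones were ARR7 at 0.19, PMT6 at 0.59, AT5G54710 at 0.44 and AT3G15356, a lectin gene, at -0.50.

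At 300 min, 16 members were lower in FRtip leaf tips (5.48% of all genes tested) and 0 were higher (5.26% of all). Again the shares of all genes are not a like reference, since the members were picked for falling in this tissue at earlier times. With limma, 22 members had an unadjusted p below 0.05, and edgeR called 17 lower and 0 higher. SAUR14 had 37.5, 84.4, 65.7 and 56.7 normalized counts in FRtip and 176, 182, 209 and 165 in WL, a log2 difference of -1.62 ± 0.20 (limma adjusted p = 7.25e-09). ARR7 had 99, 66.2, 41.1 and 60.0 in FRtip and 191, 257, 226 and 212 in WL, with -1.78 ± 0.28 (limma adjusted p = 3.69e-06). RGF9 had 434, 449.5, 565 and 507 in FRtip and 954, 857, 884 and 807 in WL, with -0.85 ± 0.13 (limma adjusted p = 1.35e-06). In each of these genes the 4 FRtip samples lay below the 4 WL samples. HAT3 had 34.1, 29.7, 23.3 and 40.0 in FRtip and 73.1, 50.5, 71.9 and 89.5 in WL, with -1.14 ± 0.20 (limma adjusted p = 2.27e-05), again without overlap. CRK40, AT1G67400, HAT22, AT1G22330, IAA14, AT1G27210, AT3G15356, AT3G06868 and AT2G21195 were also lower, and of these IAA14 was not called without replicate 3, AT3G06868 not without replicate 3 or 4 and AT2G21195 not without replicate 1, 2 or 4.

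Some of the lower genes were scarce in the tip at 300 min. ASN1 had 0, 0, 0 and 2.22 normalized counts in FRtip and 8.53, 4.33, 10.8 and 7.79 in WL. These were 2 reads in the FRtip group and 24 in the WL group, a ratio of 0.0949 with a 95% interval for counting error alone of 0.0109 to 0.382 (Clopper-Pearson), and limma called it lower (adjusted p = 2.05e-07). AO1 had 1.71, 2.28, 8.21 and 2.22 in FRtip and 17.1, 15.9, 20.3 and 18.2 in WL, with a log2 difference of -2.22 ± 0.51 (limma adjusted p = 0.0013). The FRtip and WL samples did not overlap in either gene. ABCB21 had 1.71, 2.28, 2.74 and 1.11 in FRtip and 4.88, 7.21, 10.8 and 9.08 in WL, with -1.59 ± 0.54 (limma adjusted p = 0.0461), a call that 4 of 11 alternatives kept and that was lost on leaving out any of replicates 1 to 4. GA20OX1 overlapped between the groups, with 5.12, 2.28, 1.37 and 10.004 in FRtip and 9.75, 5.77, 9.49 and 3.89 in WL, as did SAUR15, with 8.53, 13.7, 17.8 and 6.67 in FRtip and 19.5, 13, 21.7 and 10.4 in WL, and neither was called.

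In the abaxial petiole at 300 min, 3 members were higher in FRtip (2.67% of all genes tested) and 3 were lower (4.51% of all), which is 7.5% of the members each way. Here too the shares of all genes are not a like reference, since the members were picked for rising in this tissue. AT3G06070, of no known role, had 208, 194, 194 and 229 normalized counts in FRtip and 119, 119, 116 and 118 in WL, a log2 difference of 0.80 ± 0.17 (limma adjusted p = 0.000918). HAT3 had 104, 77.5, 113 and 140.1 in FRtip and 62.4, 63.4, 66.1 and 70.9 in WL, with 0.69 ± 0.15 (limma adjusted p = 0.00168). All FRtip samples lay above all WL samples in both, and CNGC15 was the third gene called higher, at 0.85.

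The 3 members that were lower abaxially at 300 min were ABCB21, ARR7 and ARF10. ABCB21 had 11.8, 10.07, 13.8 and 16.7 normalized counts in FRtip and 40.2, 42.5, 23.3 and 57.4 in WL, a log2 difference of -1.52 ± 0.30 (limma adjusted p = 0.000471). ARR7 had 128, 140.2, 132 and 158 in FRtip and 230.3, 212, 165 and 197 in WL, with -0.52 ± 0.14 (limma adjusted p = 0.0136). ARF10 had 19.2, 20.9, 38.6 and 35.6 in FRtip and 56, 42.5, 41.4 and 49.8 in WL, with -0.76 ± 0.22 (limma adjusted p = 0.0208). In all 3 genes the FRtip samples lay below the WL samples. GA20OX1, with 64.4, 66.6, 97.9 and 112 in FRtip and 121.97, 99.6, 97 and 159 in WL, overlapped between the groups and was not called. ARR7 and ARF10 were not called without replicate 1, 2 or 4, nor CNGC15 without replicate 1, 3 or 4, and edgeR did not call ARF10. The count of lower members was 1 without replicate 1, 2 or 4 and 5 without replicate 3, and that of higher members was 5 without replicate 2, with a mean of at least 10, with the replicate number as a block and by edgeR.

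In the adaxial petiole at 300 min, 2 members were higher in FRtip (1.26% of all genes tested) and 4 were lower (1.98% of all). AT3G06070 had 113, 86.9, 143 and 110.93 normalized counts in FRtip and 55.3, 72.7, 61 and 65.8 in WL, a log2 difference of 0.81 ± 0.20 (limma adjusted p = 0.0126). ABCB21 had 4.89, 8.82, 4.2 and 5.8 in FRtip and 10.14, 15.3, 11.4 and 11 in WL, with -0.93 ± 0.25 (limma adjusted p = 0.0221). The samples of the 2 treatments did not overlap in either gene. CNGC15 was higher, at 0.69, and CRK40, ARR7 and AT1G67340 were lower, at -0.61, -0.43 and -0.46. Without replicate 3, and also without replicate 4, 0 of the members were called in either direction, without replicate 1 the counts were 0 higher and 2 lower, and without replicate 2 the count of higher members was 1. The test of the abaxial minus the adaxial effect at 300 min called 0 members (0.01% of all genes tested in either direction), with 1 member, HAT22, at an unadjusted p below 0.05 in limma and 0 called by edgeR.

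Whether the effect differed between petiole and tip could be tested at 300 min, a time that did not choose the genes. The abaxial minus the leaf tip effect was above 0 in 13 of the 40 genes (1.78% of all genes tested) and below 0 in 0 (3.42% of all). Its median was 0.80 over the members and 0.00 over all genes tested. All genes tested are not a like reference here, since the members were picked for this same split between these tissues at earlier times. The members also had to pass an abundance threshold in both tissues, which all genes tested did not. With limma, 24 members had an unadjusted p below 0.05, and edgeR called 12 above 0 and 0 below. HAT3 had effects of 0.69 abaxially and -1.14 in the tip, a difference of 1.82 ± 0.25 (limma adjusted p = 3.7e-08). HAT22 had 0.45 and -1.06, a difference of 1.51 ± 0.26 (limma adjusted p = 9.37e-06). Both were called under all 11 alternatives, and HAT3 was the gene of the 13 that was called by itself in both tissues with opposite signs. ARR7 was called lower in both tissues, at -0.52 abaxially and -1.78 in the tip, so that its effects differed in size, as did those of SAUR14, at -0.42 and -1.62. The 13 genes were 5 without replicate 3 and 8 without replicate 4.

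**Figure D4:**
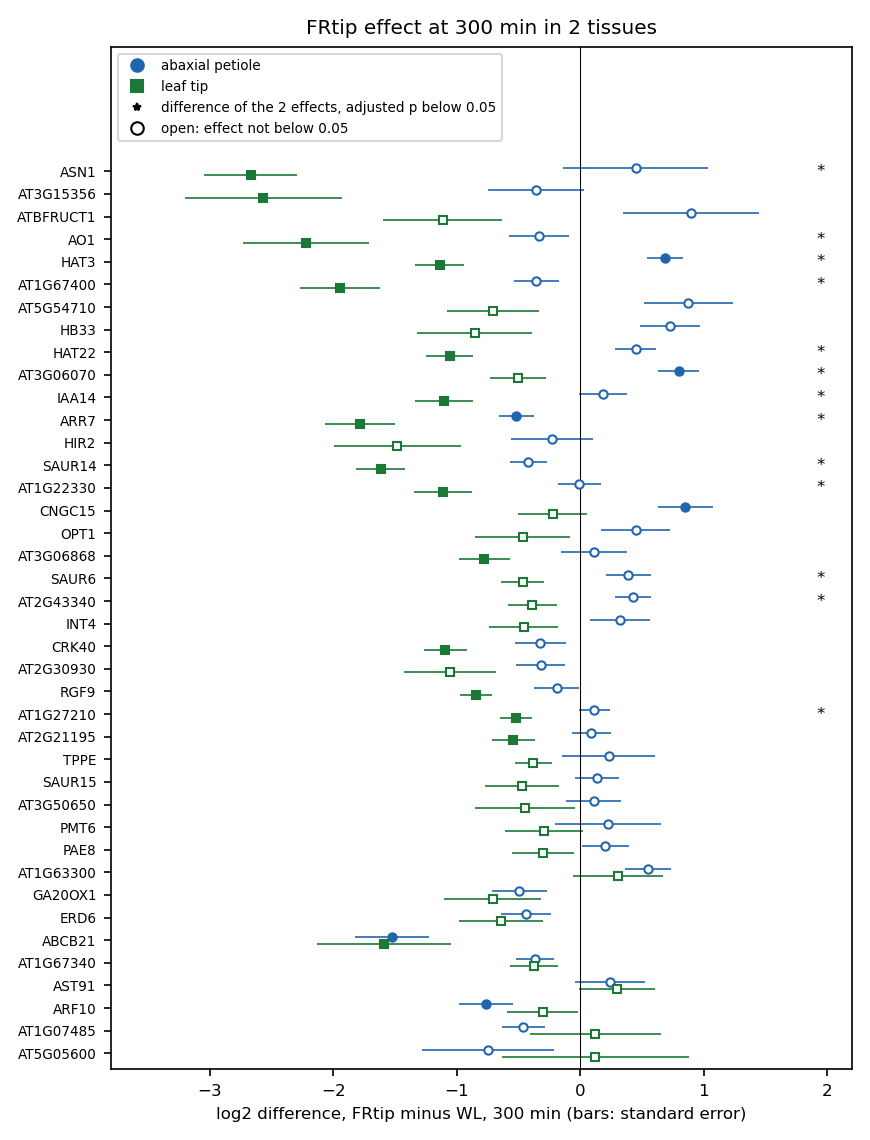
Log2 difference of FRtip minus WL at 300 min (horizontal axis) in the abaxial petiole (circles) and the leaf tip (squares) for the 40 genes, with bars for the standard error and filled symbols for an adjusted p below 0.05. Stars mark the 13 genes in which the 2 effects differed, among them HAT3 with 0.69 abaxially and -1.14 in the leaf tip.

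In WL alone, members differed between leaf tip and abaxial petiole in both directions, at shares near those of all genes tested. Such shares are no result about the members. The choice also required a mean normalized count of at least 10 in each of these tissues, so genes scarce in either could not be members. At 60, 80 and 300 min, 14 were higher in the leaf tip than in the abaxial petiole (32% of all genes tested) and 18 were lower (38.9% of all), which is 35% and 45% of the members. Among those lower in the tip were GA20OX1, with a log2 difference of -2.80 ± 0.19 (limma adjusted p = 2.41e-25), and PAE8, with -2.17 ± 0.13 (limma adjusted p = 5.41e-29). Among those higher were CRK40, with 1.57 ± 0.11 (limma adjusted p = 1.67e-24), and TPPE, with 1.94 ± 0.17 (limma adjusted p = 3.05e-19). The SAUR genes differed from each other, with SAUR6 at 0.96, SAUR14 at 0.71 and SAUR15 at -0.62. ARR7 at 0.25, RGF9 at -0.19 and ASN1 at -0.19 were not called.

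**Figure D5:**
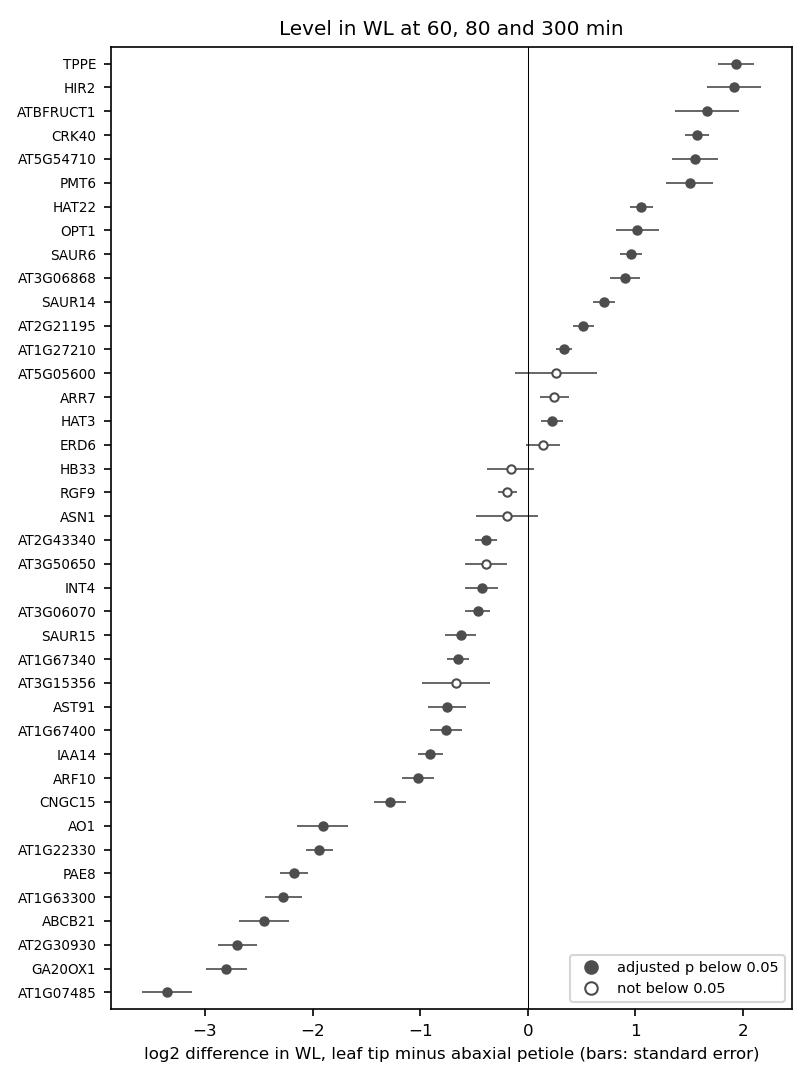
Log2 difference of the level in WL, leaf tip minus abaxial petiole (horizontal axis), over 60, 80 and 300 min for the 40 genes, with bars for the standard error and filled points for an adjusted p below 0.05. Of the filled points, 14 lie right of 0 and 18 left of it.

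Many members also differed between times in WL, which were also different times of the day. In the leaf tip, 17 were lower at 300 min than at 60 to 80 min (15.2% of all genes tested) and 3 were higher (13.3% of all). In the abaxial petiole, 12 were higher at 300 min (11.7% of all) and 5 were lower (13.5% of all). SAUR15, ASN1, AT1G63300, AT1G27210 and AT1G07485 were called both lower in the leaf tip and higher abaxially. In WL leaf tips SAUR15 had 19.5, 13, 21.7 and 10.4 normalized counts at 300 min and a log2 difference of 300 min minus 60 to 80 min of -1.58 ± 0.26 (limma adjusted p = 1.5e-06). In the abaxial petiole in WL it had 97.6, 95.4, 74.7 and 98.6 at 300 min and 31.1, 36.4 and 55 (lowest, median and highest of 8) at 60 to 80 min, a log2 difference of 1.20 ± 0.15 (limma adjusted p = 1.16e-08). GA20OX1 differed by -1.39 ± 0.34 (limma adjusted p = 0.000923) in the WL leaf tip and RGF9 by 1.00 ± 0.16 (limma adjusted p = 1.46e-06) abaxially in WL. These WL samples at 300 min also serve the FRtip comparisons at that time. The count of 3 was 1 without replicate 1 or 3, and the count of 5 was 3 without replicate 3 and 8 with the replicate number as a block.

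For the families and pathways of the members, the number of genes that met each threshold of the choice is given as a description. Of all 19964 genes tested, 1979 had a leaf tip difference of at most -0.4 and 1166 an abaxial one of at least 0.3 at 100 to 180 min. Of 58 SAUR genes tested, 15 and 31 did, and 3 are members, and adaxially in the same window 26 were called higher and 2 lower with a median of 0.40, beside 3.15% higher and 1.63% lower of all genes tested. Of 28 Aux/IAA genes tested, 2 and 15 met the thresholds, with IAA14 as a member, and 16 were higher and 1 lower adaxially. In 43 genes of auxin transport and synthesis the numbers were 6 and 10, with ABCB21 as a member, and 6 were higher and 0 lower adaxially. In 9 genes of gibberellin synthesis and breakdown they were 3 and 4, with GA20OX1 as a member and 1 of 3 called higher adaxially.

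Among 34 cytokinin genes tested, 12 met the leaf tip threshold and 6 the abaxial one, with ARR7 as a member. In the leaf tip at 300 min, 10 of them were lower and 3 higher (5.48% and 5.26% of all genes tested), and adaxially at 100 to 180 min 6 were higher and 1 lower. In the light signalling list, which holds HAT3 and HAT22, 14 of 97 genes were higher and 7 lower adaxially. The same counts were 7 and 0 of 51 pectin genes, with PAE8, and 5 and 0 of 94 genes of WRKY factors and immunity, with CRK40. They were 7 and 3 of 55 genes of sugar and starvation, in which TPPE and ASN1 were not called. The list of nitrate, amino acid and sugar transport, with AST91, leaned the other way, with 6 genes higher and 12 lower adaxially. In that list, 32 genes met the leaf tip threshold and 10 the abaxial one. Adaxially, 3.15% of all genes tested were higher and 1.63% lower, and a share near these is no result about a list. The counts include the members, and no list was tested as a whole.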

How the data were processed

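The authors made strand-specific BrAD-seq libraries of mRNA, mapped the reads to TAIR10 and deposited DESeq2-normalized signal values for 204 samples, each the count of reads on a locus divided by 1 size factor per sample. The submitters' processing notes name FastQC, STAR, Picard, HTSeq and DESeq, and how multiply matching reads were counted is not given in the sources used here. Every value (100%, tolerance 0.001) came out as a whole number of reads once divided by the worth of 1 read. Size factors ran from 0.308 to 2.68, so low genes are imprecise in shallow libraries, and intervals cover counting error only.

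Tests used 199 samples. The other 5, from the petiole at 40 min, had at most 2 samples a group. The log2 of the signal plus 1 was fitted for the 19964 genes whose mean was 1 or more, with limma 3.58.1 (R 4.3.3) and 1 mean for each treatment and time in each tissue. FRtip minus WL was averaged over the times of a window, and differences between tissues came from fits over both. These fits took the samples of both tissues as independent, and any link between pieces of 1 leaf was not modelled. Changes on this scale are understated for low genes. P-values were two-sided and adjusted over all genes tested. Replicates are described as biological, with no more on their source, so p-values measure the spread between these samples. Among 297 pairs within groups, the closest differed by 1.19 times counting error, and none was taken as a repeat.

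Members, lists and tests were chosen with earlier results of these data known. Named genes were the 10 members with the widest split, the 12 with the smallest adaxial p at 100 to 180 min, the 4 with the smallest p in each other FRtip comparison, the 4 with the highest counts, those in a list and those nearest a threshold. Others, such as ARF10 and AT3G06868 beyond the thresholds, were named after their values were seen. Symbols and promoters came from RefSeq TAIR10.1, which held 32835 of the 33602 loci. Alternatives, 11 for each test, were edgeR 4.0.16 (quasi-likelihood) on the recovered reads, pseudocounts of 0.5 and 5, requiring a mean of 10 or none, centring on the sample median, a replicate block, and leaving out each replicate number. Figures were drawn with matplotlib 3.10.9.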

Additional observations from a re-analysis of the deposited data

Results flagged for a closer look

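In the mean log2 value over the 40 genes, 49 groups of 4 samples were looked at for a sample that stood apart from the other 3, and chance gives about 1 in 20. It happened in 4 groups. In abaxial WL samples, replicate 4 was highest at 120 min (6.211), replicate 3 was lowest at 300 min (5.703) and replicate 3 was highest at 80 min (5.87), and in leaf tip WL samples replicate 4 was highest at 140 min (5.901). Among 38 groups of 4 looked at for single genes, it happened in 3. AO1 in the FRtip leaf tip at 300 min had replicate 3 highest at 8.214 normalized counts, and ASN1 in the same group had replicate 4 highest at 2.223, the other 3 samples being at 0. With those at 0, any read in replicate 4 would have set it apart, so the rate of 1 in 20 does not hold for ASN1. SAUR15 in the abaxial petiole in WL at 300 min had replicate 3 lowest at 74.68.

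The FRtip effect at 300 min differed between the abaxial petiole and the leaf tip in 13 genes by a test of the difference (limma, abaxial minus leaf tip). The log2 differences were 1.82 for HAT3, 1.51 for HAT22, 1.20 for SAUR14, 1.30 for AT3G06070, 1.29 for IAA14, 3.12 for ASN1, 1.59 for AT1G67400, 1.26 for ARR7, 1.103 for AT1G22330, 0.64 for AT1G27210, 0.86 for SAUR6, 0.82 for AT2G43340 and 1.89 for AO1. The value of ASN1 rests on 2 reads in the FRtip leaf tip group.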

How the results depend on the processing

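The choice of members gave 40 genes. It gave 33 with a pseudocount of 5 and 42 with a pseudocount of 0.5 or with centring, and between 41 and 54 without 1 replicate, of which 33 to 38 were members. The 22 adaxial members at 100 to 180 min were called under every alternative that kept all replicates (22 to 24 calls, 24 by edgeR), and 18 to 21 were called without 1 replicate. Of 149 calls of members, those between times and tissues in WL included, 99 held under every alternative that gave a value, 50 were lost under at least 1 and 0 changed sign.

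At 300 min, abaxial members called higher were 5 with a mean of at least 10, with the replicate block and by edgeR, and 2 to 5 without 1 replicate, and those called lower were 1 to 5 without 1 replicate. Adaxial members called higher were 1 with no filter and 0 to 1 without 1 replicate, and those called lower were 2 by edgeR and 0 to 3 without 1 replicate. The count for abaxial minus leaf tip was 5 to 10 without 1 replicate. In WL, members higher at 300 min in the leaf tip were 1 to 3 without 1 replicate, and members lower at 300 min in the abaxial petiole were 8 with the replicate block and 3 to 7 without 1 replicate. The cause was not tested, beyond the smaller number of samples without a replicate.

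Same-numbered samples deviated together with a correlation above 0.1 in 62 of 99 pairs, and since this did not hold for every pair the numbers were not taken to pair samples. In the adaxial petiole it held for 27 of 32 pairs, and at 300 min there for 4 of 4, where the block gave 3 higher and 5 lower members. Same-numbered samples correlated best with each other in 82 of all 99 pairs and in 32 of 32 adaxially, a hint from the data and not from the design. With the replicate block, 0 of the 149 calls were lost, and 2 counts moved by over 1.5 times, both given above. Genes near 10 normalized counts in the leaf tip, such as GA20OX1, ABCB21 and AO1, are limited by depth.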

Other observations

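The petiole samples at 40 min, 1 of FRtip and 1 of WL on the abaxial side and 1 of FRtip and 2 of WL on the adaxial side, entered no comparison. In them, 14 of the 40 genes were higher and 26 lower in FRtip abaxially, with a median log2 difference of -0.20, and 20 were higher and 20 lower adaxially, with a median of 0.01.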
